A study of Mus musculus with 285 samples.

Results

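Neurons of the cortex were compared between mice given 3 fractions of radiation at ultra-high dose rate (FLASH 3x10Gy) and mice given the same fractions at conventional dose rate (CONV 3x10Gy), 1 mouse of each on each of 3 slides. Libraries labelled as neurons of the cortex were taken for both treatments, which gave 12 of the 285 libraries in the series. After 1 library with almost no counts was left out, 11 remained, and the libraries of a mouse were summed to give 6 mice of the 15 in the series. FLASH 3x10Gy mouse A and CONV 3x10Gy mouse A lay on slide 1, both mice B on slide 2 and both mice C on slide 3.

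All mice were C57BL/6J, tumour-free, with no engineered allele named in the labels, and 9 weeks old by the series text. The whole brain of FLASH 3x10Gy mice received 3 fractions of 10 Gy, 48 h apart, each in 1 pulse. CONV 3x10Gy mice received the same fractions and interval at 0.09 Gy/s by the sample labels. A single fraction of 10 Gy was given to FLASH 1x10Gy and CONV 1x10Gy mice, and CTRL mice were sham irradiated (3 mice in each group). Brains were collected 24 h after the last fraction, fixed and embedded in paraffin, and 5 µm sections were profiled with GeoMx, in which light releases the barcodes of RNA probes from chosen areas. The areas used here were those stained for NeuN, a protein of neuronal nuclei, within regions picked on the image, and the labels give neither the cortical layer nor the cortical area. Such an area is not a set of single cells, so that fewer cells of a type and less RNA per cell cannot be told apart.

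FLASH delivers a dose within a fraction of a second, and interest in it comes from reports that normal brain is spared while tumours respond as to conventional irradiation. Ionising radiation breaks DNA, and damaged cells stabilise the transcription factor p53, whose best known target is *Cdkn1a*, the gene of the cell cycle inhibitor p21. Neurons of the cortex do not divide. Their RNA is known to follow activity within minutes to hours through the immediate early genes, such as *Fos*, *Egr1* and *Arc*, and calcium that enters at active synapses acts through calmodulin, its kinases and the phosphatase calcineurin.

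Levels below are normalised read counts (CPM) after TMM scaling, given for mice A, B and C in this order. For FLASH 3x10Gy and CONV 3x10Gy mice this is also the order of slides 1, 2 and 3. It is not the slide order of the CTRL, FLASH 1x10Gy and CONV 1x10Gy mice. The summed mice held 3279119, 2042562 and 619547 counts in the FLASH 3x10Gy group, against 2538192, 1075135 and 854308 counts in the CONV 3x10Gy group (exact permutation p = 0.7, 2-sided). CONV 3x10Gy mouse B was represented by 1 library, since its other library held 321 counts. The background share, which is the average over 209 negative probes in percent of that over all genes, was 66.4%, 55.8% and 56.8% in FLASH 3x10Gy mice, against 62.1%, 55.6% and 59.6% in CONV 3x10Gy mice (exact permutation p = 0.8). Most of an average gene's count was therefore at the level of probes without a target. With 3 mice on each side such a permutation test cannot go below p = 0.1. All 12 pan-neuronal markers had a mean over 2 times that of the negative probes, as did 8 of 10 excitatory neuron markers. Markers of other cells in the same areas passed that level for 9 of 17 oligodendrocyte and myelin genes, 3 of 14 astrocyte markers and 1 of 14 microglia markers, and for 0 of 12 endothelial, 9 mural, 7 oligodendrocyte precursor and 2 blood cell genes.

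Libraries did not resemble each other more by treatment than by slide. Over 2225 well detected genes, 2 libraries of the same mouse differed by a median absolute difference of 0.28 on the log2 scale (5 pairs), a FLASH 3x10Gy and a CONV 3x10Gy library of the same slide by 0.24 (10 pairs), and libraries of the same treatment on different slides by 0.27 (20 pairs). Libraries of different treatments on different slides differed by 0.26 (20 pairs). These pairs share libraries, and the values are a description. The median between treatments on 1 slide was thus no larger than that between 2 areas of 1 brain. Single libraries also differ by area and by counting, so these values do not size a treatment difference.

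No gene differed between FLASH 3x10Gy and CONV 3x10Gy cortical neurons at adjusted p < 0.05 (0 of 10020 genes tested, 0%, edgeR quasi-likelihood test with slide as a factor and Benjamini-Hochberg adjustment). The smallest adjusted p was 0.9996 and the smallest unadjusted p was 0.00103. At unadjusted p < 0.05, there were 174 genes (1.74%), 80 of them higher and 94 lower in FLASH 3x10Gy mice. DESeq2 also called 0 genes and had 34 at unadjusted p < 0.05. The direction repeated on all 3 slides for 1009 genes that were higher (10.1%) and 1052 that were lower in FLASH 3x10Gy mice (10.5%). In 301 genes (3.00%) all 3 FLASH 3x10Gy mice lay above all 3 CONV 3x10Gy mice, and in 319 (3.18%) below. Across the 10020 genes, which are not independent of each other, the log2 differences had Pearson correlations of -0.0676 between slides 1 and 2, -0.108 between slides 1 and 3 and -0.0588 between slides 2 and 3.

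The same values bound how large a difference could have been missed. The fitted fold was under 1.2-fold in either direction for 9377 of the 10020 genes (93.6%), and the median standard error was 0.17 on the log2 scale. Of the 2225 well detected genes, 2042 (91.8%) had a 95% interval that stayed within 1.5-fold in both directions, and 2221 had one within 2-fold. These intervals refer to counts that include background, which pulls a fold towards 1, and smaller differences were not detectable with 3 mice per treatment.

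**Figure D1:**
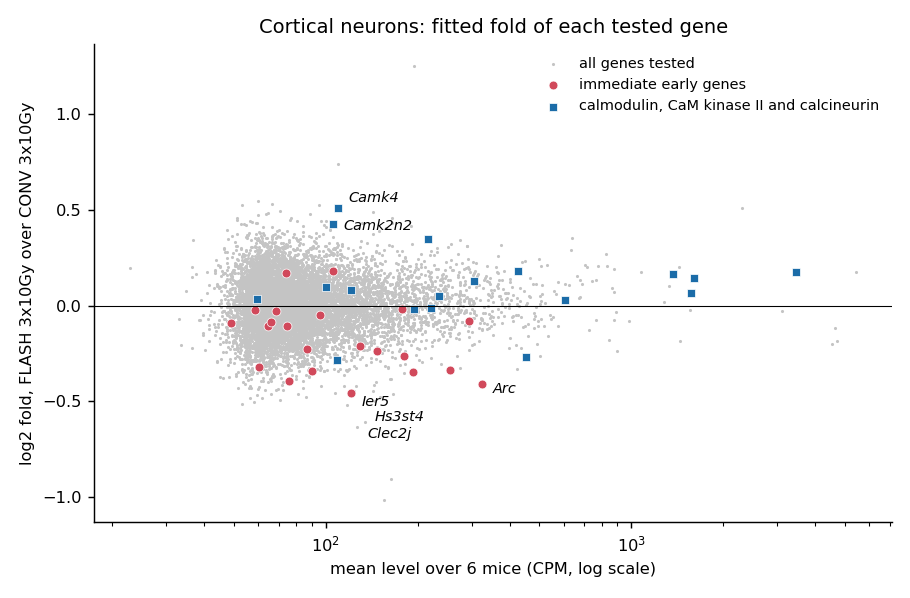
Fitted log2 fold of FLASH 3x10Gy over CONV 3x10Gy cortical neurons (vertical axis) against the mean level over the 6 mice in CPM (horizontal axis, log scale) for the 10020 genes tested, with 22 immediate early genes as red circles and 18 calmodulin, CaM kinase II and calcineurin genes as blue squares. Most genes lie within 1.2-fold of 0, and none passed adjusted p < 0.05. Of 22 immediate early genes 20 lie below 0, while 5116 of all 10020 genes lie above it.

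The largest fitted folds came from single libraries. *Nnat*, which encodes a small proteolipid of the endoplasmic reticulum, had 50.9, 782 and 77.1 CPM in FLASH 3x10Gy mice, against 46.6, 58.0 and 147 CPM in CONV 3x10Gy mice. The highest of these values came from 1 of the 2 libraries of FLASH 3x10Gy mouse B, with 1487 CPM, while its other library had 43.3 CPM, and the fitted log2 fold was 1.25 (SE 0.89). That library also held the highest level of *Lypd1*, a modulator of nicotinic receptors, with 420.1 CPM, against 86.7 CPM in the other library of the mouse. *Rab10*, a GTPase of membrane transport, had 90.1, 92.7 and 128 CPM in FLASH 3x10Gy mice, against 389, 107 and 119 CPM in CONV 3x10Gy mice, and the excess lay in 1 library of CONV 3x10Gy mouse A with 646 CPM. *Zdhhc20*, a palmitoyltransferase, had 1246 CPM in 1 library of CONV 3x10Gy mouse C and at most 87.9 CPM in the other 10. Across the 11 libraries 5 genes reached over 3 times their next highest library somewhere, these 4 and *Fam228a*, and they were named after their values were seen. *Nnat* and *Rab10* were the only 2 genes with a fitted fold over 2 in either direction. The 7 genes over 1.5 were these, *Lypd1*, *Zdhhc20*, *Clec2j*, *Hs3st4* and *Slc24a2*, a sodium and potassium-dependent calcium exchanger (log2 fold -0.59 (SE 0.19)), also named after its values were seen.

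Among genes at 2 or more times the level of the negative probes that differed the same way on all slides, those with the smallest p are described next, 12 in each direction, none of which passed the adjusted threshold. Since direction and p chose them, their values are a description. *Clec2j*, a C-type lectin, had 72.9, 69.5 and 154 CPM in FLASH 3x10Gy mice, against 115, 104 and 245 CPM in CONV 3x10Gy mice. It was lower in the FLASH 3x10Gy mouse of each slide by a nearly equal amount, -0.65, -0.58 and -0.67 on the log2 scale, although mice C of both treatments stood above mice A and B. The fitted log2 fold was -0.63 (SE 0.18), 0.64-fold with a 95% interval of 0.50 to 0.83 (edgeR, unadjusted p = 0.00103, adjusted p = 1.00). *Camk4*, a calmodulin-dependent kinase that phosphorylates CREB in the nucleus, had 108, 117 and 170.5 CPM in FLASH 3x10Gy mice, against 90.5, 80.4 and 92.0 CPM in CONV 3x10Gy mice. All FLASH 3x10Gy mice lay above all CONV 3x10Gy mice, with a log2 fold of 0.51 (SE 0.16), 1.43-fold with a 95% interval of 1.14 to 1.79 (unadjusted p = 0.00272, adjusted p = 1.00).

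By single library *Camk4* overlapped: the 6 libraries of FLASH 3x10Gy mice had 78.1 and 126 CPM (A), 155 and 81.0 CPM (B) and 151 and 181 CPM (C). The 5 libraries of CONV 3x10Gy mice had 97.6 and 82.1 CPM (A), 80.1 CPM (B) and 87.0 and 97.0 CPM (C). In 1 library each of FLASH 3x10Gy mice A and B the level was below that of the highest CONV 3x10Gy library.

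*Hs3st4*, a heparan sulfate sulfotransferase that marks deep cortical layers, had 94.5, 90.6 and 142 CPM in FLASH 3x10Gy mice, against 217, 95 and 164 CPM in CONV 3x10Gy mice. Its log2 fold of -0.61 (SE 0.21) (unadjusted p = 0.00602) rested mainly on slide 1, where the difference was -1.19, against -0.07 and -0.20 on slides 2 and 3. *Gak*, the kinase that helps strip clathrin from vesicles, was more even, with 78.1, 87.8 and 81.7 CPM in FLASH 3x10Gy mice, against 107, 115 and 107 CPM in CONV 3x10Gy mice. The groups did not overlap, and the log2 fold was -0.42 (SE 0.17). *Dctn3*, a dynactin subunit of the dynein motor, had 170.4, 169 and 231 CPM in FLASH 3x10Gy mice, against 129, 129 and 160.2 CPM in CONV 3x10Gy mice, again without overlap and with a log2 fold of 0.43 (SE 0.17). The membrane protein gene *Ly6e* had 198, 210.0 and 248 CPM in FLASH 3x10Gy mice, against 163, 162 and 158 CPM in CONV 3x10Gy mice, with a log2 fold of 0.42 (SE 0.18).

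The other genes that were higher on all 3 slides had log2 folds from 0.32 for *Chmp1a*, a subunit of the ESCRT machinery, to 0.44 for *Sppl3*, an intramembrane protease. They were *Camk2n2* (0.42), an inhibitor of CaM kinase II, *Ptprn2* (0.40), a protein of dense-core vesicles, the homeobox gene *Pknox2* (0.41), *Cpne4* (0.38), a calcium-dependent membrane binding protein, the chromatin remodeller *Ep400* (0.37), *Vstm2a* (0.36) and the olfactory receptor gene *Olfr948* (0.36). Those that were lower included *Ankrd33b* (-0.46), *Astn2* (-0.46), which acts in neuronal migration, *Ier5* (-0.46), *Zbtb16* (-0.45), a zinc finger factor, *Igsf9b* (-0.44), an adhesion protein of inhibitory synapses, and *Fam163b* (-0.42). *Unc80*, a subunit of the sodium leak channel NALCN, had -0.41, *Lpcat4*, an acyltransferase of phospholipids, -0.40, and *Klf9*, a transcription factor that glucocorticoids induce, -0.38. *Zbtb16* is also induced by glucocorticoids. Of 14 genes tested in a list of glucocorticoid response genes 4 were lower on all 3 slides (28.6%, beside 10.5% of all genes). On all 3 slides 2 were higher (14.3%, beside 10.1%), and the median log2 fold of the list was -0.02. At unadjusted p < 0.05 there were 2 lower, beside 94 of all 10020 genes. The list holds *Zbtb16*, which direction and p had already chosen.

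Immediate early genes had the median furthest from 0 among the 34 lists with 10 or more genes tested. Of 30 genes on the list 22 were tested, and 20 of these had a negative fitted fold in FLASH 3x10Gy against CONV 3x10Gy mice. Over all 10020 genes tested 5116 had a positive one. On all 3 slides 11 of 22 were lower (50%, against 10.5% of all genes tested) and 1 was higher (4.55%, against 10.1%). The median log2 fold was -0.16, with -0.18 on slide 1, -0.10 on slide 2 and -0.19 on slide 3, beside a median of 0.00 over all genes. None passed the adjusted threshold, and at unadjusted p < 0.05 there were 2 (beside 1.74% of all genes), *Ier5* and *Nptx2*, both lower. Immediate early genes are known to be switched on together, so 22 genes are not 22 independent observations.

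*Arc*, whose protein acts on AMPA receptor traffic, had 307, 357 and 161 CPM in FLASH 3x10Gy mice, against 394, 554 and 176 CPM in CONV 3x10Gy mice. On each slide the FLASH 3x10Gy mouse was the lower one, but mice of 1 treatment differed by more than the pairs did, since both mice C were low and both mice B high. The log2 fold was -0.41 (SE 0.25), with a 95% interval of 0.530 to 1.07-fold (edgeR, unadjusted p = 0.110). The transcription factor gene *Egr1* had 233, 279.6 and 156 CPM in FLASH 3x10Gy mice, against 291, 402 and 165 CPM in CONV 3x10Gy mice, and a log2 fold of -0.34 (SE 0.25). *Fos*, a subunit of the AP-1 factor, had 69.0, 112 and 58.4 CPM in FLASH 3x10Gy mice, against 96.1, 136 and 69.9 CPM in CONV 3x10Gy mice, and a log2 fold of -0.34 (SE 0.17). In all 3 genes mice B were the highest and mice C the lowest of either treatment.

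*Per1*, which neuronal activity, the clock and glucocorticoids all induce, had 174, 216 and 117 CPM in FLASH 3x10Gy mice, against 223, 258 and 167 CPM in CONV 3x10Gy mice, a log2 fold of -0.35 (SE 0.18). *Ier5* had 119, 103 and 84.1 CPM in FLASH 3x10Gy mice, against 145, 170.1 and 104 CPM in CONV 3x10Gy mice, and *Nptx2*, a secreted pentraxin that clusters AMPA receptors, had 57.8, 64.6 and 74.7 CPM in FLASH 3x10Gy mice, against 80.4, 76.5 and 101 CPM in CONV 3x10Gy mice. *Nptx2* was the only one of the 22 genes in which all FLASH 3x10Gy mice lay below all CONV 3x10Gy mice, as did 3.18% of all genes. Its mean was under 2 times that of the negative probes, close to background. *Homer1* of the postsynaptic scaffold (log2 fold -0.26), the nuclear receptor *Nr4a1* (-0.24), *Egr3* (-0.21), *Npas4* (-0.23) and the phosphatase *Dusp1* (-0.05) were the remaining genes lower on all slides. *Sik1*, a salt-inducible kinase, was the one that was higher on all slides (0.18). *Jund* and *Junb*, AP-1 subunits, had -0.08 and -0.02. *Bdnf*, the growth factor gene, had 47.0, 68.8 and 53.7 CPM in FLASH 3x10Gy mice, against 54.5, 44.8 and 81.8 CPM in CONV 3x10Gy mice, which went in different directions on slides 2 and 3 and stood 1.29 times over the negative probes. *Nr4a1*, *Egr3*, *Npas4*, *Dusp1*, *Sik1* and *Junb* lie outside the rule for named genes and were named after their values were seen.

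**Figure D2:**
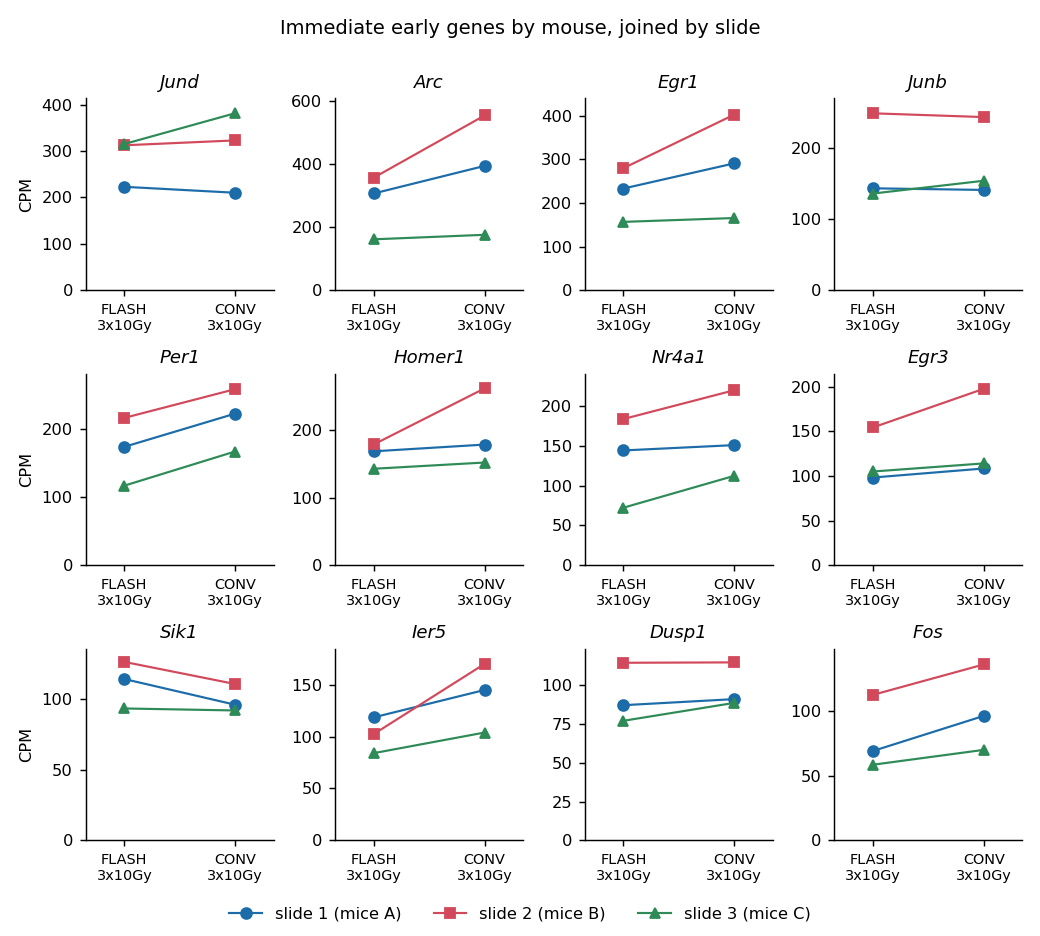
Level in CPM (vertical axis, from 0) of the 12 immediate early genes whose mean was over 2 times that of the negative probes, for FLASH 3x10Gy mice on the left and CONV 3x10Gy mice on the right of each panel, with lines that join the 2 mice of a slide. Most lines climb to the right, those of *Sik1* do not, *Jund* and *Junb* are mixed, and slide 2 sits highest in *Arc*, *Egr1* and *Per1*.

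This count rested on how mouse B of the FLASH 3x10Gy group was sampled. Its 2 libraries were far apart: *Arc* was 618 CPM in one and 109.8 CPM in the other, *Egr1* 493 and 78.3 CPM, and the background share 46.9% and 64.3%. The second of these is the library with high *Nnat* and *Lypd1*. The neuronal genes *Nrgn*, a calmodulin-binding protein of dendrites, and *Snap25*, of the vesicle fusion machinery, moved with them, at 6320.5 and 1932 CPM and at 2083 and 835 CPM. The single library of CONV 3x10Gy mouse B had 552 CPM of *Arc* and a background share of 55.6%. With the first library alone in place of mouse B, 6 immediate early genes were lower on all 3 slides (27.3%, beside 9.57% of all genes). The median on slide 2 was then 0.15. With the second alone there were 12 (54.5%, beside 11.1% of all genes), and the median on slide 2 was -0.36. The direction on slide 2 therefore changed with the library, while slides 1 and 3 hold neither of them. The part of the sampled area in these differences was not tested.

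**Figure D3:**
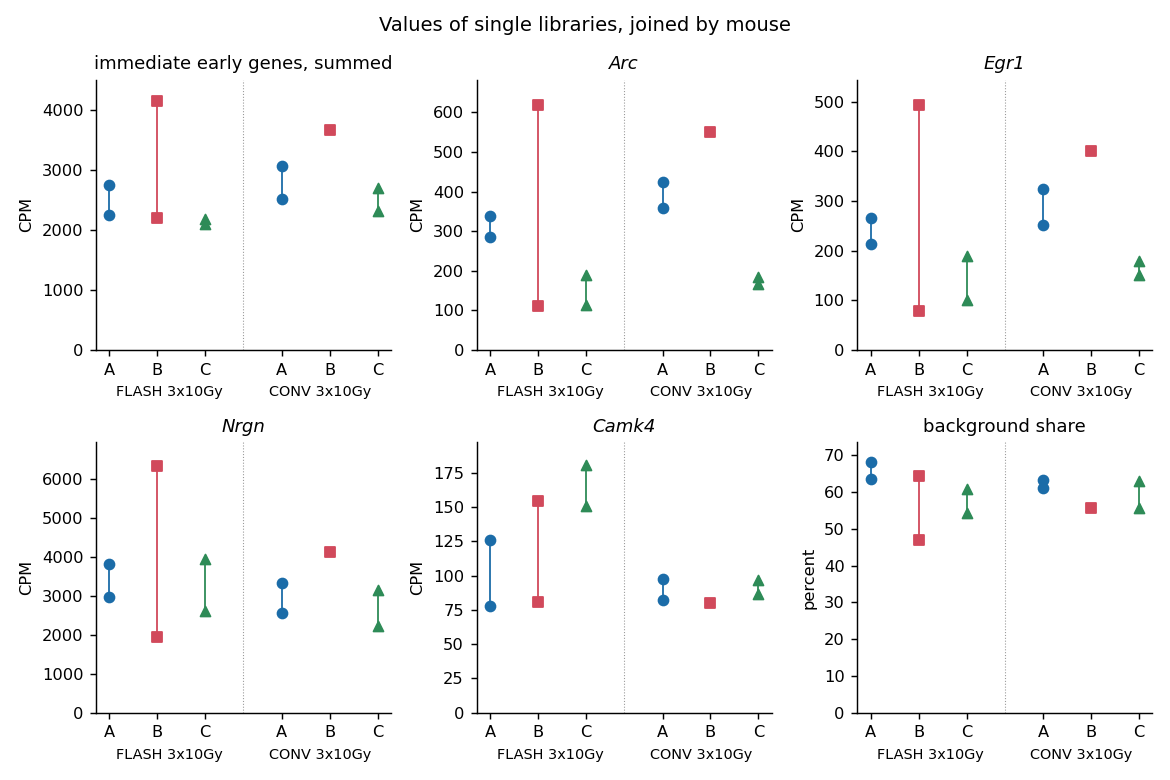
Values of the 11 single libraries (points, joined by mouse) for FLASH 3x10Gy mice on the left and CONV 3x10Gy mice on the right of each panel: the summed level of 22 immediate early genes, *Arc*, *Egr1*, *Nrgn* and *Camk4* in CPM, and the background share in percent. The 2 libraries of FLASH 3x10Gy mouse B span the whole range of the others for *Arc*, *Egr1* and *Nrgn*, and CONV 3x10Gy mouse B has 1 point.

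Circadian clock genes had a median nearer to 0. Of 14 tested, 6 were lower on all 3 slides (42.9%, beside 10.5% of all genes) and 0 higher (beside 10.1%), with a median log2 fold of -0.06 and -0.03 on slide 1, -0.12 on slide 2 and -0.12 on slide 3. The 6 were *Per1*, which the immediate early list also holds, *Per2*, *Cry2*, *Nr1d2*, *Arntl* and *Ciart*. *Arntl*, the partner of Clock in the activating complex, had 55.6, 64.6 and 37.4 CPM in FLASH 3x10Gy mice, against 65.2, 64.6 and 68.2 CPM in CONV 3x10Gy mice, so that the mice of slide 2 were nearly equal and slide 3 gave the main difference. The repressor gene *Ciart* had 83.2, 78.7 and 70.1 CPM in FLASH 3x10Gy mice, against 98.9, 85.7 and 98.8 CPM in CONV 3x10Gy mice, and a log2 fold of -0.24 (SE 0.16). *Nr1d1*, a repressor of *Arntl*, was higher in the FLASH 3x10Gy mouse on slides 1 and 3, with 148, 155 and 187 CPM in FLASH 3x10Gy mice, against 130.4, 178 and 102 CPM in CONV 3x10Gy mice. With only the first library of FLASH 3x10Gy mouse B 1 clock gene was lower on all slides (7.14%, beside 9.57% of all genes). In that setting 3 were higher (21.4%, beside 10%), and the median on slide 2 was 0.32. With only the second library 7 were lower (50%, beside 11.1% of all genes), and the median on slide 2 was -0.48. No source used here gives the hour of the day at which each brain was taken.

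Genes of calmodulin signalling had more members higher than lower on all slides. Of 18 tested members of the list of calmodulin, CaM kinase II and calcineurin genes 5 were higher on all 3 slides (27.8%, against 10.1% of all genes). On all 3 slides 0 were lower (against 10.5%), and the median log2 fold was 0.09. The 5 were *Camk4* and *Camk2n2*, described above, *Ppp3cb* (0.10) and *Ppp3r1* (0.18), subunits of calcineurin, and its regulator *Rcan2* (0.08). *Camk2n2* had 121, 123 and 114 CPM in FLASH 3x10Gy mice, against 82.6, 91.0 and 101 CPM in CONV 3x10Gy mice, without overlap. Of the abundant members, *Nrgn* had 3487, 4061 and 3464 CPM in FLASH 3x10Gy mice, against 2975, 4146 and 2672 CPM in CONV 3x10Gy mice, and *Calm2*, a calmodulin gene, had a log2 fold of 0.07 (SE 0.25). The kinase subunits *Camk2a* and *Camk2b* had log2 folds of 0.03 (SE 0.23) and 0.05 (SE 0.19), and the calcineurin subunit *Ppp3ca* one of -0.02 (SE 0.19). *Pcp4*, a small calmodulin regulator of deep layer neurons, was lower on slides 1 and 2 and higher on slide 3, with 399, 232 and 628 CPM in FLASH 3x10Gy mice, against 654, 417 and 383 CPM in CONV 3x10Gy mice. With the first library of FLASH 3x10Gy mouse B alone 7 members of the list were higher on all slides (38.9%, beside 10% of all genes). The median on slide 2 was then 0.42. With the second alone there were 2 (11.1%, beside 11.3% of all genes), with a median of -0.04. *Ppp3cb*, *Ppp3r1*, *Rcan2* and the clock genes *Per2*, *Cry2* and *Nr1d2* lie outside the rule for named genes.

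Synaptic genes gave no call and no common direction. The 36 genes that the study names, mostly of synapses, had a median log2 fold of 0.02, with -0.21 on slide 1, 0.10 on slide 2 and 0.08 on slide 3. On all 3 slides 3 were higher (8.33%, beside 10.1% of all genes), *Ap2b1* and *Pfn2* among them. Lower on all 3 slides were 6 (16.7%, beside 10.5%), among them *Syt2*, *Ap2a1*, *Egr1*, *Fos* and *Arc*. The study picked its synaptic genes on hippocampal neurons of the same series, not on the cortex. It names *Fos*, *Arc* and *Egr1* only as targets for further work. *Syt2*, a calcium sensor of fast transmitter release, had 66.4, 63.9 and 44.4 CPM in FLASH 3x10Gy mice, against 96.7, 84.4 and 68.2 CPM in CONV 3x10Gy mice, without overlap, and the smallest p of the 36 (log2 fold -0.50 (SE 0.17), unadjusted p = 0.00485, adjusted p = 1.00). Its mean was 1.70 times that of the negative probes, close to background. *Syt1* of the same family, which is far more abundant, had 494, 620.2 and 679.7 CPM in FLASH 3x10Gy mice, against 639, 628 and 390.2 CPM in CONV 3x10Gy mice, with opposite directions on slides 1 and 3.

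No glutamate receptor gene was called. *Gria2*, an AMPA receptor subunit, had a log2 fold of -0.06 (SE 0.21), and the NMDA receptor subunits *Grin1*, *Grin2a* and *Grin2b* had -0.11 (SE 0.21), -0.04 (SE 0.22) and -0.02 (SE 0.21). *Cnih3*, an auxiliary protein of AMPA receptors, had 119.9, 171 and 149 CPM in FLASH 3x10Gy mice, against 108, 124 and 107 CPM in CONV 3x10Gy mice, higher on each slide, with a log2 fold of 0.34 (SE 0.17). The metabotropic receptor gene *Grm2* was low but did not overlap, with 67.7, 74.5 and 98.1 CPM in FLASH 3x10Gy mice, against 54.5, 65.9 and 54.5 CPM in CONV 3x10Gy mice. Of 30 SNARE fusion genes 1 was higher (3.33%) and 3 lower (10%) on all slides. For 17 dynamins, clathrins and AP2 subunits these counts were 1 (5.88%) and 3 (17.6%), and for 21 postsynaptic scaffold genes 2 (9.52%) and 4 (19%). Over all genes 10.1% were higher and 10.5% lower on all slides. *Snap25* had 1394, 1439.9 and 1249.5 CPM in FLASH 3x10Gy mice, against 1478, 1346 and 1036 CPM in CONV 3x10Gy mice, *Vamp2*, the vesicle SNARE, a log2 fold of 0.13 (SE 0.22), and *Dlg4*, the scaffold PSD-95, one of -0.09 (SE 0.21). The GABA-A receptor list had a median of 0.10 over 11 genes, with 0 of them in 1 direction on all slides.

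Genes of the response to DNA damage gave no call either. *Cdkn1a* had 76.3, 54.8 and 53.7 CPM in FLASH 3x10Gy mice, against 72.5, 85.7 and 64.7 CPM in CONV 3x10Gy mice, a log2 fold of -0.22 (SE 0.18) with a 95% interval of 0.670 to 1.10-fold, and CTRL mice had 54.1, 60.2 and 42.2 CPM. It was higher in the FLASH 3x10Gy mouse on slide 1 and lower on slides 2 and 3. Its mean was under 2 times that of the negative probes, so the interval refers to a level near background. *Mdm2*, which degrades p53, had 99.2, 94.1 and 105 CPM in FLASH 3x10Gy mice, against 106, 106 and 88.6 CPM in CONV 3x10Gy mice, and a log2 fold of -0.04 (SE 0.16). Over 17 p53 targets tested of 28 the median was 0.02, and 5 of the 17 were over 2 times the negative probes. On all 3 slides 2 were higher (11.8%, beside 10.1% of all genes) and 0 lower (beside 10.5%). DNA repair genes were mostly near background, with 3 of 17 over 2 times the negative probes, and had a median of 0.04. *Parp1*, which senses breaks, had a log2 fold of 0.06 (SE 0.16), and *Trp53bp1*, a factor of end joining, one of -0.00 (SE 0.16).

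Few immune genes reached a level that could be compared. Of 20 interferon-stimulated genes 5 were tested, and 1, *B2m*, the light chain of class I molecules, was over 2 times the negative probes. It had 110.4, 119 and 140.1 CPM in FLASH 3x10Gy mice, against 98.3, 103 and 104 CPM in CONV 3x10Gy mice, without overlap, and a log2 fold of 0.26 (SE 0.16) (unadjusted p = 0.108). Of 22 inflammatory genes 4 were tested, none of them over that level.

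Housekeeping pathways had medians within 0.1 of 0. Respiratory complex I, the entry point of the electron transport chain, had 10 of 37 genes higher on all 3 slides (27.0%, beside 10.1% of all genes) and 1 lower (2.70%, beside 10.5%), with a median log2 fold of 0.07. The count of 10 higher genes (27.0%) held with either library of FLASH 3x10Gy mouse B, beside 10% and 11.3% of all genes. *Ndufa1*, an accessory subunit, had 108, 122 and 117 CPM in FLASH 3x10Gy mice, against 92.2, 81.8 and 112 CPM in CONV 3x10Gy mice, and a log2 fold of 0.30 (SE 0.16). *Ndufb8*, in the membrane arm, had 110.4, 131 and 126 CPM in FLASH 3x10Gy mice, against 103, 89.7 and 114 CPM in CONV 3x10Gy mice, and *Ndufs8*, an iron-sulfur subunit, had 87.6, 92.7 and 119 CPM in FLASH 3x10Gy mice, against 81.5, 73.9 and 90.3 CPM in CONV 3x10Gy mice. The genes of complexes II to V had a median of 0.04 over 40 genes, with 3 higher (7.5%) and 2 lower (5.0%) on all slides. Cytosolic ribosomal proteins had a median of 0.03 over 64 genes, with 6 higher (9.38%) and 3 lower (4.69%) on all slides. Proteasome subunits had 0.01 over 30, with 6 higher (20%) and 3 lower (10%). Glycolysis enzymes had 0.09 over 18, with 0 higher and 0 lower. Heat shock chaperones had -0.01 over 25, with 1 higher (4%) and 5 lower (20%). Over all genes these shares were 10.1% and 10.5%.

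Cytoskeleton genes had a median of 0.11 over 30 genes, 23 of them positive (beside 5116 of all 10020 genes). On all 3 slides 6 were higher (20%, beside 10.1% of all genes) and 0 lower (beside 10.5%). With the first library of FLASH 3x10Gy mouse B alone 7 were higher (23.3%, beside 10% of all genes) and 0 lower. With the second alone 3 were higher (10%, beside 11.3% of all genes) and 3 lower (10%, beside 11.1%). *Cfl1*, the actin-severing cofilin, had 665, 896 and 1130.4 CPM in FLASH 3x10Gy mice, against 671, 744 and 891 CPM in CONV 3x10Gy mice, and *Stmn1*, which destabilises microtubules, had 672, 662 and 738 CPM in FLASH 3x10Gy mice, against 652, 630.4 and 721 CPM in CONV 3x10Gy mice. The pan-neuronal markers, which the choice of areas by NeuN bears on, had a median of 0.10 but went in different directions, with -0.16 on slide 1, 0.18 on slide 2 and 0.26 on slide 3. Of the 34 lists with 10 or more genes tested, 31 had a median between -0.1 and 0.1, and in 4 the median had the same sign on all 3 slides: immediate early genes and clock genes (negative), and calmodulin genes and complex I (positive). With 1 library of FLASH 3x10Gy mouse B at a time, complex I alone of these 4 kept its sign on slide 2, with medians of 0.09 and 0.01.

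**Figure D4:**
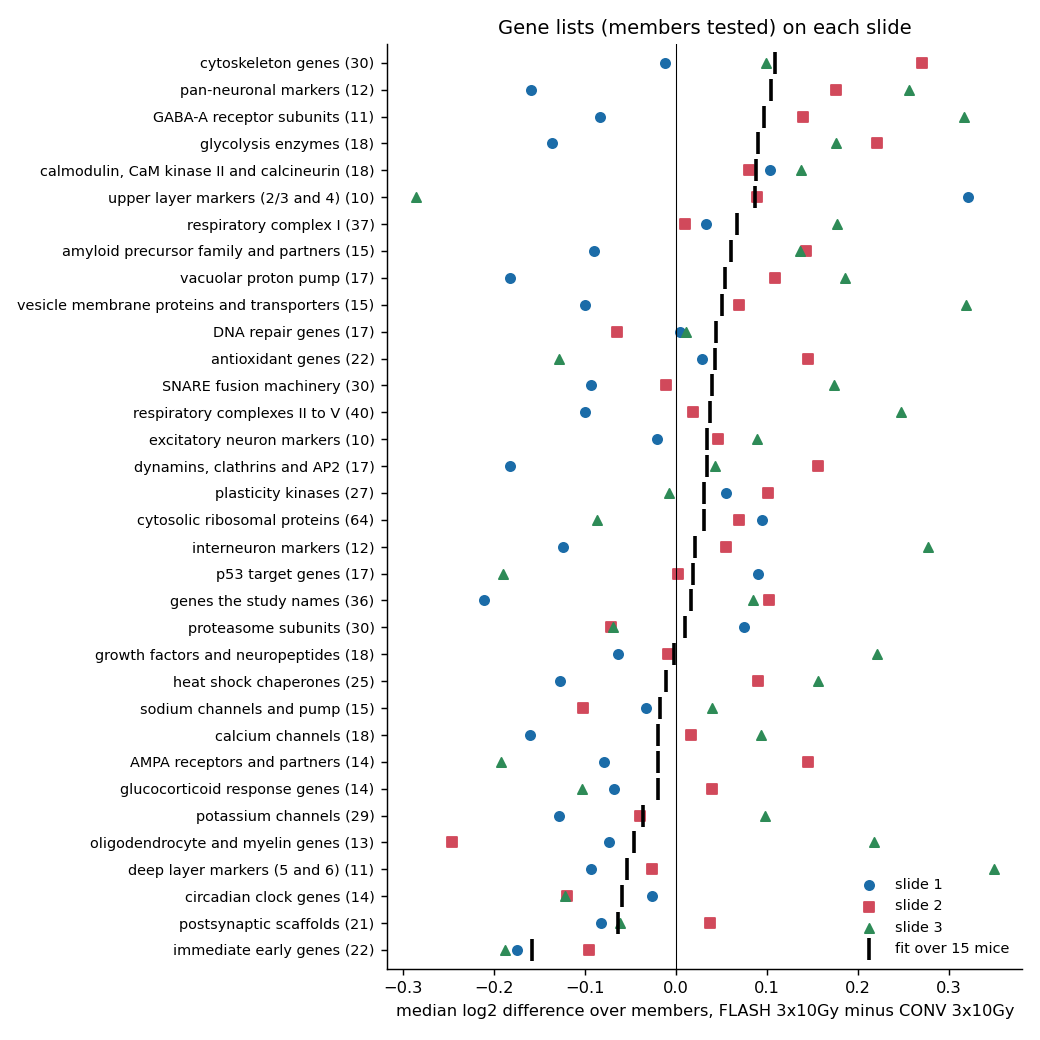
Median log2 difference of FLASH 3x10Gy minus CONV 3x10Gy over the genes of each list (horizontal axis) on slide 1 (blue circles), slide 2 (red squares) and slide 3 (green triangles), with the median of the fitted folds as a black bar, for the 34 lists with 10 or more genes tested (number in brackets). For most lists the 3 slides lie on both sides of 0, and the spread between slides exceeds the distance of the bar from 0.

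Layer markers and myelin genes differed between paired areas in both directions. Upper layer markers had medians of 0.32 on slide 1, 0.09 on slide 2 and -0.29 on slide 3, and deep layer markers -0.09 on slide 1, -0.03 on slide 2 and 0.35 on slide 3, so that the FLASH 3x10Gy mouse of slide 3 had less of the upper and more of the deep layer genes than its partner. The myelin list summed to 1794, 1461 and 1334 CPM in FLASH 3x10Gy mice, against 1891, 1719.8 and 1043 CPM in CONV 3x10Gy mice. The sum was lowest in CONV 3x10Gy mouse C. Of 9 astrocyte markers tested 3 were lower on all slides (33.3%, beside 10.5% of all genes) and 1 higher (11.1%, beside 10.1%). *Slc4a4*, a bicarbonate transporter, was among the lower ones (-0.46, SE 0.16), and *Gja1*, connexin 43, was the higher one (0.38, SE 0.17), both under 2 times the negative probes. The part of these cells and layers in the results above was not tested.

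Both 3-fraction groups were also set beside CTRL mice. In FLASH 3x10Gy mice 1 gene was called lower than in CTRL mice and 0 higher (0.00998%), with 412 at unadjusted p < 0.05 (4.11%). This gene was *Clec2j*, with 72.9, 69.5 and 154 CPM in FLASH 3x10Gy mice, against 197, 130.5 and 113 CPM in CTRL mice, a log2 fold of -1.18 (edgeR adjusted p = 0.000863), although FLASH 3x10Gy mouse C lay within the range of the CTRL mice. For CONV 3x10Gy over CTRL its log2 fold was -0.55 (adjusted p = 0.999). In CONV 3x10Gy mice 0 were called (0%), with 279 at unadjusted p < 0.05 (2.78%). Both comparisons share the 3 CTRL mice, of which slides 1 and 2 hold 1 each and slide 3 none. The immediate early list had a median log2 fold of 0.05 for FLASH 3x10Gy over CTRL and 0.23 for CONV 3x10Gy over CTRL, from fits that share the CTRL mice. CTRL mice themselves were apart, with 334, 171 and 226 CPM of *Arc* and 298, 118 and 148 CPM of *Egr1*.

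Whether the contrast of FLASH against CONV differed between the schedules was tested in the same fit. The difference of the contrasts (3x10Gy minus 1x10Gy) called 2 of 10020 genes (0.0200%), with 869 at unadjusted p < 0.05 (8.67%). *Crym*, which encodes a thyroid hormone binding protein and marks some deep layer neurons, had 74.6, 110.3 and 95.8 CPM in FLASH 3x10Gy mice, against 64.1, 56.7 and 104 CPM in CONV 3x10Gy mice, and 63.6, 84.1 and 71.6 CPM in FLASH 1x10Gy mice, against 96.1, 158 and 143 CPM in CONV 1x10Gy mice. After a single fraction all FLASH mice lay below all CONV mice, whereas after 3 fractions the mice overlapped. The log2 difference of the contrasts was 1.28 (SE 0.24, adjusted p = 0.0254), and the 3-fraction contrast itself was 0.36 (SE 0.17). *Zbtb16* had 142, 138 and 77.1 CPM in FLASH 3x10Gy mice, against 176, 187 and 133 CPM in CONV 3x10Gy mice, and 138, 259.8 and 200.4 CPM in FLASH 1x10Gy mice, against 65.1, 119 and 83.5 CPM in CONV 1x10Gy mice. All FLASH 1x10Gy mice lay above all CONV 1x10Gy mice, and the difference of the contrasts was -1.37 (SE 0.27, adjusted p = 0.0493). For both genes most of the difference came from the single-fraction mice, with log2 folds of FLASH over CONV of -0.92 and 0.92, and neither call was kept without slide as a factor or with DESeq2. With 1 of the 15 mice left out at a time the number of genes called ran from 0 to 35, the highest without CTRL mouse B. *Crym* was called in 8 of these 15 fits and *Zbtb16* in 4. The FLASH 1x10Gy against CONV 1x10Gy comparison called 6 genes (0.0599%), and its mice lie on slides 3 to 5, only partly in pairs.

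**Figure D5:**
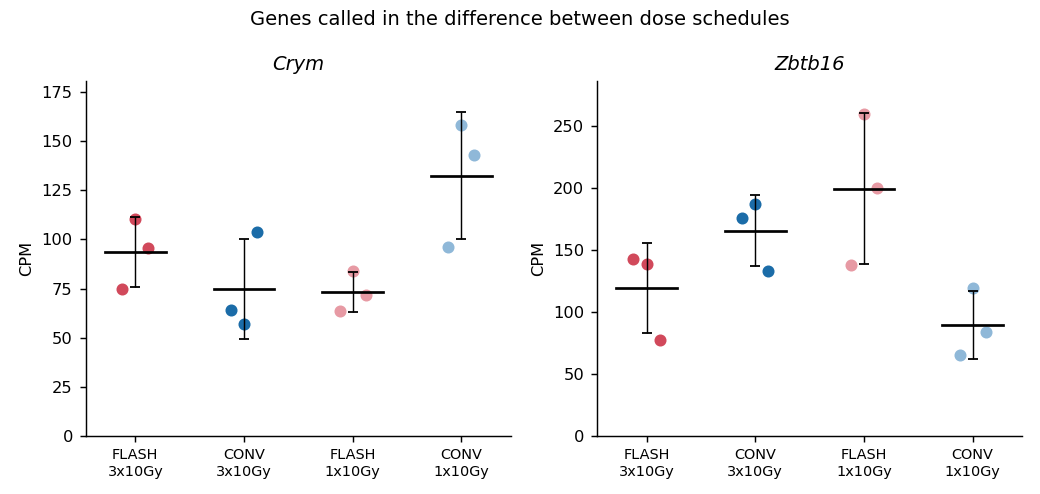
Level of *Crym* and *Zbtb16* in CPM (vertical axis, from 0) in cortical neurons of FLASH 3x10Gy, CONV 3x10Gy, FLASH 1x10Gy and CONV 1x10Gy mice (3 points each, with the mean as a bar and the SD as whiskers). The points of the 3-fraction groups overlap, and those of the single-fraction groups do not, with *Crym* lower and *Zbtb16* higher in FLASH 1x10Gy mice.

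In hippocampal neurons of the same 6 mice, the FLASH 3x10Gy against CONV 3x10Gy comparison also called 0 genes (0%), with 797 at unadjusted p < 0.05 (7.95%). The difference of this contrast between cortex and hippocampus, fitted with the mouse as a block, called 0 of 10020 genes (0%), with 502 at unadjusted p < 0.05 (5.01%) and 108 by DESeq2. The immediate early list had a median of 0.05 in the hippocampus, beside -0.16 in the cortex, and *Camk4* had -0.06, beside 0.51. *Arc* had -0.13 and *Egr1* -0.08 there. *Clec2j* had 126, 102 and 220.3 CPM in the hippocampus of FLASH 3x10Gy mice, against 120.2, 76.1 and 701 CPM in that of CONV 3x10Gy mice. It was there higher in the FLASH 3x10Gy mouse on slides 1 and 2, and the log2 fold of -0.51 (SE 0.37) rested on CONV 3x10Gy mouse C. None of these differences between regions passed the test at adjusted p < 0.05.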

How the data were processed

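Segments of formalin-fixed mouse brain were profiled on the GeoMx Digital Spatial Profiler. The deposited files hold deduplicated counts per probe for each library, as the authors made them, with no normalization, and R 4.4.0 and edgeR are listed in the submitters' processing notes. A library was kept when it had 1000 raw reads or more, of which 80% could be trimmed, 80% stitched and 75% aligned, with a saturation of 50% or more. The geometric mean of its negative probes had to reach 1, and it had to detect 5% of genes. Detection means a count over the quantification limit, which is the geometric mean of 209 negative probes times the square of their geometric SD, and at least 2. Genes above it in 5% of the kept libraries were tested (10020 of 19962), and those above it in 50% are called well detected (2225).

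Groups came from the treatment label and slides from the batch label. Libraries were summed per mouse. All 15 mice entered 1 edgeR 4.0.16 quasi-likelihood fit (R 4.3.3) with TMM scaling, group and slide, and Benjamini-Hochberg adjustment over all genes. Slide pairs the mice by label. Over the 2225 well detected genes, deviations from the group means correlated at 0.36, 0.000486 and 0.224 within slides 1, 2 and 3. Deviations cancel within a group for each gene, so the mean between slides (-0.101) largely follows from these values and is not a separate comparison. Within-slide differences are differences of log2 CPM with a small prior count added by edgeR, which pulls them slightly towards 0. For the geometric mean of the negative probes a count of 0 was set to 0.5. The fit was tested on simulated counts.

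The members and lists were chosen with earlier results of these data known. The rule for named genes took up to 12 genes in each direction that passed, filled by the smallest unadjusted p among genes with 1 direction on all slides and a mean at least 2 times that of the negative probes, the genes the study names, up to 4 members of each list by p and 3 by level, *Cdkn1a*, and up to 6 genes called in each difference test. Other genes were named after their values were seen, and some genes that the rule names are not reported here. Alternatives were DESeq2 1.42.0, other scalings and filters, no slide term, fits of the 6 mice, a mixed model over libraries (lmerTest 3.1.3) and leaving out each mouse. Representing FLASH 3x10Gy mouse B by 1 library at a time was chosen after seeing the data.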

Additional observations from a re-analysis of the deposited data

Results flagged for a closer look

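The contrast of FLASH against CONV in cortical neurons differed between the 3-fraction and the single-fraction schedule for *Crym* and *Zbtb16*, by the test of the difference itself. For *Crym* the difference of the log2 folds was 1.28, with a fold of 0.36 after 3x10Gy and -0.92 after 1x10Gy (edgeR, adjusted p = 0.0254). For *Zbtb16* it was -1.37, with -0.45 after 3x10Gy and 0.92 after 1x10Gy (edgeR, adjusted p = 0.0493).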

How the results depend on the processing

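The FLASH 3x10Gy against CONV 3x10Gy comparison called 0 genes in all 35 alternatives, with 11 to 599 genes at unadjusted p < 0.05 and a smallest adjusted p of 0.435. The largest of these counts came without FLASH 3x10Gy mouse A. Without the replicate block of slide the count was 0 as well, with 158 genes at unadjusted p < 0.05. The 2 genes called for the difference between schedules were 0 without the replicate block, 0 with DESeq2 and 1, *Crym*, with upper quartile scaling. With the strict gene filter 0 genes were called, but neither *Crym* nor *Zbtb16* is among the genes it tests. With 1 mouse left out the count ran from 0 to 35. It was 34 without CTRL mouse A, 35 without CTRL mouse B, 6 without FLASH 1x10Gy mouse A and 4 without CONV 3x10Gy mouse C. It was 1 without FLASH 3x10Gy mouse A or B or CONV 1x10Gy mouse B, and 0 without CONV 3x10Gy mouse B, CONV 1x10Gy mouse C, CTRL mouse C or FLASH 1x10Gy mouse B or C. *Crym* was called in 8 of the 15 fits and *Zbtb16* in 4, and the single gene without CONV 1x10Gy mouse B was *Cep250*. The difference between cortex and hippocampus had 0 genes in 18 of 19 alternatives, and 0 to 10 with 1 mouse left out, the 10 without CONV 3x10Gy mouse C. The causes were not tested. With 1 library at a time for FLASH 3x10Gy mouse B, a choice made after seeing the data, 6 or 12 immediate early genes were lower on all slides, against 11 with both summed. These were 27.3% and 54.5% of the list, against 50%. Over all genes the shares were 9.57% and 11.1%, against 10.5%. Background counts and 3 mice per treatment limit what could be detected.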
